A study of Mus musculus with 2 samples.

Results

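The genes described are 10 members of the perineuronal net and lectican group: the link proteins Hapln1, Hapln2 and Hapln4, the lecticans Acan (aggrecan), Bcan (brevican), Ncan (neurocan) and Vcan (versican), the tenascins Tnr and Tnc, and the membrane proteoglycan Cspg5 (neuroglycan C). They were found by symbol among the 28692 genes of the tables of 2 single-cell libraries, and all 10 had UMIs (unique molecular identifiers, each counting 1 captured transcript) in both libraries. Both libraries were made from the ventral parafacial region of the brainstem of 10-day-old C57BL6/J mice. The untreated library, whose condition label is WT, and the 4OH-tamoxifen library, from mice given 0.2 mg per day for 3 days, each pooled 8 mice (4 male and 4 female) and were separate batches, so animal, treatment and batch cannot be told apart and no test between the libraries was possible.

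Lecticans are chondroitin sulfate proteoglycans that bind the polysaccharide hyaluronan at one end and tenascins, above all tenascin-R, at the other, and link proteins of the Hapln family hold the lectican on the hyaluronan chain. Around many fast-firing neurons this matrix condenses into a perineuronal net, of which aggrecan and Hapln1 are core parts, and around nodes of Ranvier a related matrix holds versican, brevican, Hapln2 and tenascin-R. In the juvenile brain astrocytes and cells of the oligodendrocyte lineage make much of the matrix, so transcripts were compared between glial and neuronal classes.

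The libraries held 3767 and 10241 barcodes with 18496942 and 34704167 UMIs (untreated and 4OH-tamoxifen, the order used for every pair of values), with 40 barcodes in common. After filtering, 3339 and 8558 cells remained with medians of 3628 and 2411 UMIs, and 1959 and 5294 of them fell into the 9 classes of the rule. The classes were gated by UMIs of a marker: Chat (cholinergic neurons, 17 and 79 cells), Nmb (retrotrapezoid chemoreceptor neurons, 23 and 55), Slc32a1 (inhibitory neurons, 76 and 281), Slc17a6 (other glutamatergic neurons, 18 and 79), Aqp4 (astrocytes, 731 and 1610), Pdgfra (oligodendrocyte precursors, 176 and 472), Gpr17 (committed precursors, 339 and 1269), Mog (oligodendrocytes, 249 and 897) and C1qa (microglia, 330 and 552). All 6 astrocyte markers, all 6 oligodendrocyte markers, all 6 microglial markers, all 5 committed-precursor markers and all 3 inhibitory markers were highest in their own class in both libraries. The exceptions were Cspg4 and Sox10 of the precursor list, Gpr4 of the retrotrapezoid list and Ache of the cholinergic list, each higher in another class in both libraries, and Slc17a6 itself, which was higher in Nmb neurons (654 CPM) than in its own class (564 CPM) in the untreated library. Free RNA was visible: the 6 oligodendrocyte markers together gave 12083 and 17081 CPM (UMIs per 1000000 UMIs of the class) in microglia.

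The members sit in the genome partly as pairs of a link protein gene and a lectican gene (GRCm38). Hapln2 (chr3:88021750-88027583, minus strand) and Bcan (chr3:87987531-88000230, minus strand) are 21.5 kb apart. Hapln1 (chr13:89539796-89611652, plus) lies 43.7 kb from Vcan (chr13:89655312-89742509, minus), and Hapln4 (chr8:70083457-70090862, plus) lies 2.22 kb from Ncan (chr8:70093085-70120873, minus), with no annotated gene between the members of any of these pairs. Acan (chr7:79053483-79115099, plus) has Hapln3 as its neighbor, 2 bases away. The other members are Tnr (chr1:159523769-159931729, plus), Tnc (chr4:63959785-64047015, minus) and Cspg5 (chr9:110243783-110262576, plus). Neighbors did not share a pattern over the classes: over the 24 class and library sums (12 gated classes, 3 of them vascular or fibroblast gates, in 2 libraries), which share library depth and free RNA, Pearson's r of the log2 levels was -0.13 for Hapln2 with Bcan, -0.02 for Hapln1 with Vcan and 0.00 for Hapln4 with Ncan.

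The stretches before the start sites of Hapln2 and Bcan are shown because these neighbors on 1 strand were led by different cells, oligodendrocytes and astrocytes, in the counts that follow. They come from RefSeq (GRCm38.p6) and are written on the minus strand, 5′ to 3′; for Hapln2 the 72 bases nearest the RefSeq start are left out because a GENCODE transcript begins there. Capitals mark the E-box CAGCTG, a palindrome recognised by basic helix-loop-helix factors.
Hapln2, chr3:88027584-88027761: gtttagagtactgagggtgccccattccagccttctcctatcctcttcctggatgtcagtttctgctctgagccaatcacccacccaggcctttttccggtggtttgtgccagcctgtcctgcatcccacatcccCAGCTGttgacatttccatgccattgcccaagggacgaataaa
Bcan, chr3:88000357-88000606: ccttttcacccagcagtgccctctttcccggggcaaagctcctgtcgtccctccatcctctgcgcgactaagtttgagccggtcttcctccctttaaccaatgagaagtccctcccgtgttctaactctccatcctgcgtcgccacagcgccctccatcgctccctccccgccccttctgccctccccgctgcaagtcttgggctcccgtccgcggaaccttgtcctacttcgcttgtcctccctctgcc
The Hapln2 stretch holds 1 E-box and is 53.4% G and C, and the Bcan stretch holds none and is 62.0% G and C. Promoter windows (250 bases before to 50 after the start) were at hand for 8 of the 10 members. The E-box was found in those of Acan, Hapln2 and Ncan, and in 16.3% of all 32851 promoter windows, and the SOX core ACAAAG or ACAATG, read on both strands and sharing no bases with the E-box, in those of Hapln2 and Tnr and in 28.6% of all windows.

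**Figure D1:**
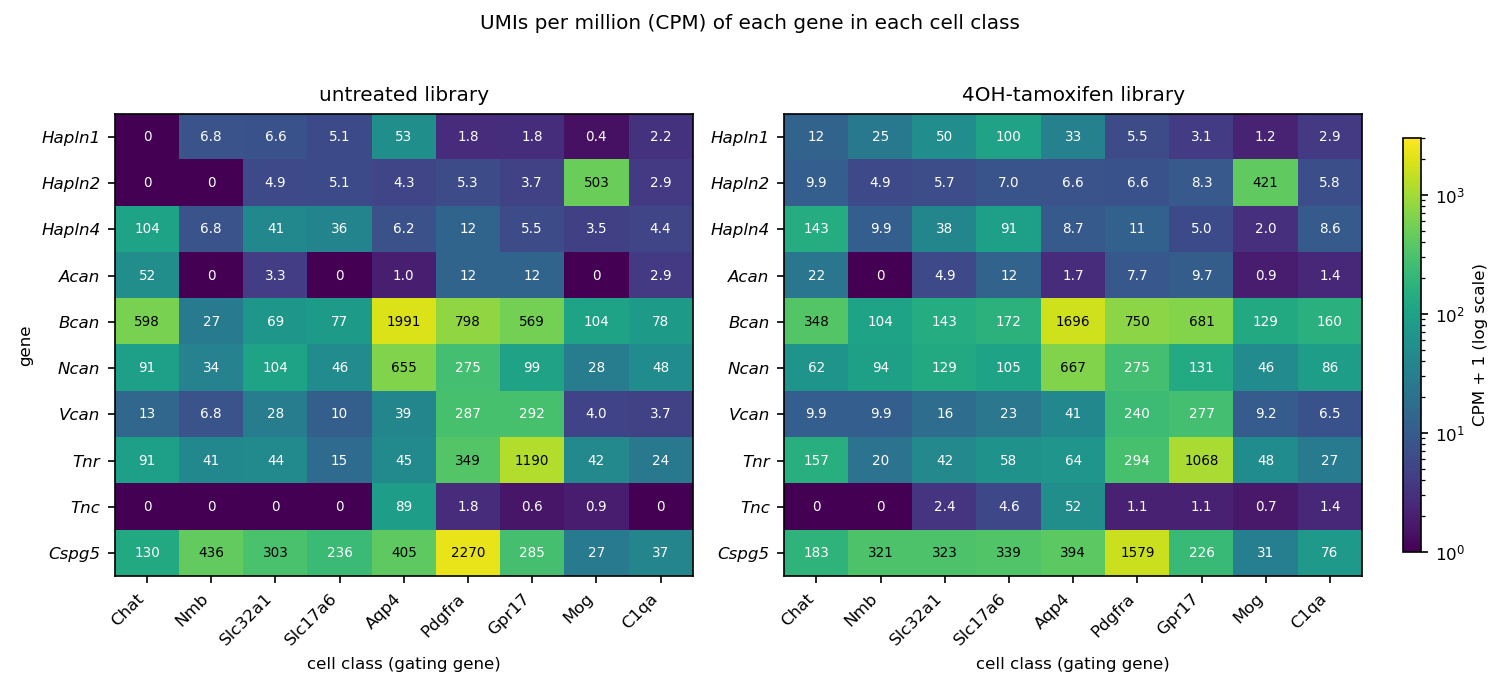
Heat map of the level of each of the 10 genes (rows) in the 9 gated cell classes (columns), as UMIs per 1000000 UMIs of the class (CPM), for the untreated library on the left and the 4OH-tamoxifen library on the right, with color on a log scale of CPM + 1 and the CPM printed in each cell. Hapln2 stands out in Mog cells (503 and 421 CPM), Tnr in Gpr17 cells (1190 and 1068), Cspg5 in Pdgfra cells (2270 and 1579) and Bcan in Aqp4 cells (1991 and 1696).

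By the mean of the 2 libraries, Aqp4 cells were highest for Bcan, Ncan and Tnc, Gpr17 cells for Tnr and Vcan, Pdgfra cells for Cspg5, Mog cells for Hapln2, Chat neurons for Hapln4 and Acan, and Slc17a6 neurons for Hapln1. No member was highest in Nmb, Slc32a1 or C1qa cells, and Hapln1 in the untreated library alone was highest in Aqp4 cells. Levels in CPM are compared between classes for the same gene, not between genes. The intervals are 95% Poisson intervals on the summed UMIs and cover counting error only. Class differences were tested in 1 edgeR fit over the 24 sums, in which each class had 2 sums, 1 per library, and the p-values are adjusted over all 11743 genes tested. All 10 members passed the filter on low counts. The log2 differences of the fit carry its scaling between sums (TMM), which CPM and log2(CPM + 1) values do not. Library was a term of the fit, so the general difference between the 2 pooled libraries did not enter the spread behind the p-values. That spread was how far the classes departed from the general difference, estimated over all 24 sums and not only those compared. As the libraries pool animals, the p-values do not measure the spread between animals.

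Hapln2, the link protein of the nodal matrix, was an oligodendrocyte transcript. Mog cells had 1140 and 2371 UMIs of it, 503 CPM (474 to 533) and 421 CPM (404 to 438), and a UMI was seen in 70.3% and 64.9% of the cells, against 1.21% and 1.45% of C1qa microglia, which serve as background (median depths 8877 and 6323 UMIs in Mog cells, 4002 and 2294 in microglia). Every other class of the rule had 5.28 CPM at most in the untreated library and 9.93 CPM at most in the 4OH-tamoxifen library. Mog cells held 75.4% of all Hapln2 UMIs in the filtered cells, a share that also depends on how many cells each class has.

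Bcan, the smallest lectican, and Ncan, a lectican that is abundant in developing brain, led in astrocytes. In Aqp4 cells Bcan stood at 1991 (1931 to 2052) and 1696 CPM (1653 to 1740), with a UMI in 98.5% and 95.0% of the cells, against 78.2 and 160 CPM and 26.7% and 29.0% of microglia. Ncan stood at 655 (621 to 691) and 667 CPM (640.5 to 695) in Aqp4 cells, against 47.5 and 86.3 CPM in microglia. Pdgfra cells came next for both genes, at 798 and 750 CPM of Bcan and 275 CPM of Ncan in each library, and the values of the 2 classes did not overlap between libraries. These 2 lecticans had the most similar profiles of any 2 members (r = 0.84 over the 24 sums).

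Tnc, the tenascin of immature and reactive astrocytes, and Hapln1, the link protein of perineuronal nets, were low and were seen in few cells. Tnc reached 89.2 (76.9 to 103) and 52.0 CPM (44.7 to 60.2) in Aqp4 cells and was at 1.76 CPM or less in Pdgfra, Gpr17, Mog and C1qa cells of both libraries. Hapln1 was at 52.8 (43.4 to 63.6) and 32.9 CPM (27.2 to 39.5) in Aqp4 cells, at 5.47 CPM or less in the other glial classes, and at a level in neurons that differed strongly between the libraries, as described with the neurons.

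Cspg5, Tnr and Vcan were highest in precursor cells of the oligodendrocyte lineage. Cspg5 was highest in Pdgfra cells, at 2270 (2148 to 2398) and 1579 CPM (1498 to 1662), and Aqp4 cells had 405 and 394 CPM. Tnr, the tenascin that crosslinks lecticans, was highest in Gpr17 cells, at 1190 (1138 to 1244) and 1068 CPM (1035 to 1103), with Pdgfra cells next at 349 and 294 CPM. Vcan, the large lectican, was at 292 and 277 CPM in Gpr17 cells and at 287 and 240 CPM in Pdgfra cells, 2 classes whose ranges over the libraries overlapped, and at 38.9 and 40.7 CPM in Aqp4 cells.

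Astrocytes and oligodendrocyte precursors divided the group between them. In Pdgfra against Aqp4 cells 4 of the 10 members were higher and 4 were lower, while of all genes tested 14.0% were higher and 17.1% lower, and the median log2 difference was -0.01 for the members and -0.07 for all genes. Higher in precursors were Vcan (log2 difference 2.35 ± 0.25 standard error, adjusted p 1.28e-10), Acan (2.31 ± 0.78, adjusted p 0.0195), Tnr (2.21 ± 0.25, adjusted p 5.59e-10) and Cspg5 (1.90 ± 0.23, adjusted p 2.1e-09). The Acan difference rests on 7 UMIs in Pdgfra cells of each library against 2 and 6 in Aqp4 cells, and it missed the threshold with cells of at least 1200 genes (adjusted p 0.173). Acan did not pass the filter on low counts with at most 10% mitochondrial UMIs or with cells thinned to 2000 UMIs. Lower in precursors were Hapln1 (-3.83 ± 0.63, adjusted p 2.72e-06, and -2.39 on log2(CPM + 1) in the 4OH-tamoxifen library alone), Bcan (-1.64 ± 0.25, adjusted p 5.69e-07), Ncan (-1.65 ± 0.21, adjusted p 1.13e-08) and Tnc (adjusted p 2.09e-10), for which Pdgfra cells had 2 UMIs in all and the CPM ratio of Aqp4 to Pdgfra cells was 48.9 (95% counting interval 13.4 to 405). Hapln2 and Hapln4 did not pass the test.

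Against microglia, Aqp4 cells were higher for 7 of the 10 members and lower for none, where 24.1% of all genes were higher and 23.4% lower, and the members' median log2 difference was 2.60 against 0.10 for all genes. Bcan (3.75 ± 0.28), Hapln1 (adjusted p 4.47e-07), Ncan (3.06 ± 0.23), Vcan (2.66 ± 0.43) and Cspg5 (2.55 ± 0.26) were among the 7, as was Tnc, with 2 UMIs in all microglia and a CPM ratio of 91.0 (95% counting interval 25.0 to 754). Tnr, at 44.6 and 63.5 CPM in Aqp4 cells and 24.1 and 27.3 CPM in microglia, differed least of them (0.78 ± 0.30, adjusted p 0.0298). It missed the threshold in DESeq2 (0.81, adjusted p 0.0608) and, in edgeR, without doublet removal (adjusted p 0.0538) and with an Aqp4 gate of 4 UMIs chosen after seeing the data (adjusted p 0.100), and was 1.19 on log2(CPM + 1) in the 4OH-tamoxifen library alone. Hapln2, Hapln4 and Acan were near microglial levels in astrocytes, at 8.66 CPM or less.

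Within the astrocytes the members split again. Cells with Slc7a10, a transporter of astrocytes within the parenchyma, and at most 1 Gfap UMI (423 and 731 cells) were compared with cells with 2 or more UMIs of Gfap, the intermediate filament of fibrous astrocytes, and no Slc7a10 (101 and 360 cells). Both sub-gates were cut from the same libraries, so the values are given with counting intervals and no test. Tnc was at 24.5 and 13.7 CPM in the Slc7a10 cells and at 249 and 125 CPM in the Gfap cells, a ratio of 0.0984 (0.0615 to 0.153) and 0.110 (0.0652 to 0.177). Hapln1 went the other way, with 75.2 and 43.8 CPM in the Slc7a10 cells against 9.70 and 18.8 CPM in the Gfap cells, a ratio of 7.76 (2.57 to 38.4) and 2.34 (1.32 to 4.41). Few cells showed both genes: 2.91% of the 275 Aqp4 cells with Tnc also had Hapln1, against 9.58% of those without Tnc.

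The abundant lecticans divided too. Ncan was lower in the Slc7a10 cells (449 and 478 CPM) than in the Gfap cells (970 and 968 CPM), with ratios of 0.463 and 0.494, and Bcan was higher (2160 and 1983 against 1477 and 1251 CPM), with ratios of 1.46 and 1.58. Vcan (ratios 0.456 and 0.444) and Tnr (0.379 and 0.643) sided with Tnc and Ncan, and Cspg5 (1.70 and 1.28) with Bcan and Hapln1, in both libraries.

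**Figure D2:**
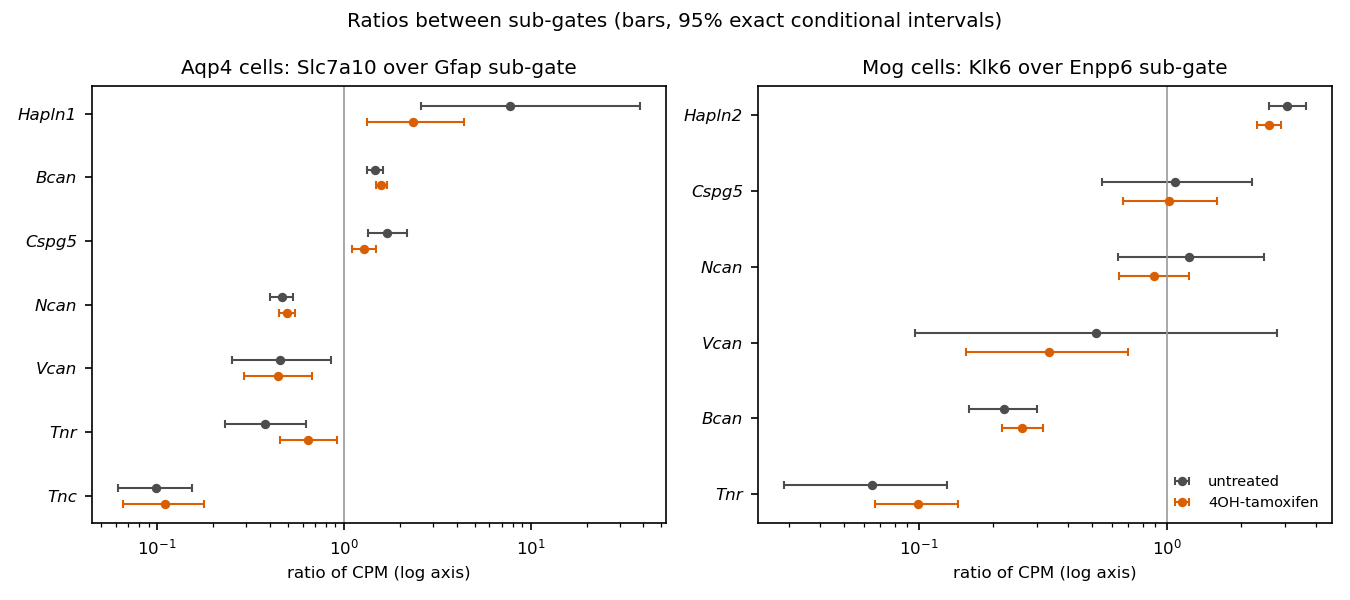
Ratio of CPM (log axis) between sub-gates of Aqp4 cells (left, Slc7a10 over Gfap) and Mog cells (right, Klk6 over Enpp6) for the members with the most UMIs there, with untreated in gray, 4OH-tamoxifen in orange, and bars giving 95% exact conditional intervals. Tnc lies at 0.0984 and 0.110 and Hapln1 above 1 in the astrocytes, and Hapln2 lies at 3.06 and 2.58 and Tnr at 0.0650 and 0.0993 in the oligodendrocytes.

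Along the oligodendrocyte lineage the members were high at different steps. From Pdgfra precursors to Gpr17 committed precursors, 1 of 10 members rose and 2 fell, where 8.19% of all genes rose and 8.55% fell. Tnr rose from 349 and 294 CPM to 1190 and 1068 CPM (log2 difference 1.97 ± 0.23, adjusted p 4.71e-09). Cspg5 fell from 2270 and 1579 CPM to 285 and 226 CPM (-2.77 ± 0.24, adjusted p 4.49e-13) and Ncan from 275 CPM in each library to 99.0 and 131 CPM (-1.12 ± 0.22, adjusted p 0.000101). The values of Vcan (0.26 ± 0.23, adjusted p 0.507) and Bcan (-0.18 ± 0.25, adjusted p 0.710) did not pass the test. With DESeq2 size factors the median of all genes moved by -0.12 in this comparison, and 38.0% in place of 48.9% of all calls were higher.

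From Gpr17 cells to Mog cells 6 of 10 members fell and 1 rose, where 18.5% of all genes fell and 19.1% rose, and the members' median log2 difference was -1.52 against -0.04 for all genes. Vcan fell from 292 and 277 CPM to 3.97 and 9.23 CPM (-4.74 ± 0.29, adjusted p 6.18e-19), and Tnr from 1190 and 1068 CPM to 41.9 and 47.7 CPM (-4.16 ± 0.25, adjusted p 6.18e-19). Acan (-3.43 ± 0.67), Cspg5 (-2.62 ± 0.25), Bcan (-1.92 ± 0.26) and Ncan (-1.11 ± 0.22) fell as well, so that all 4 lecticans were lower in oligodendrocytes than in committed precursors. Hapln2 rose from 3.67 and 8.35 CPM to 503 and 421 CPM (6.61 ± 0.29, adjusted p 6.47e-24). With each library taken alone, on log2(CPM + 1), all 7 kept their direction, with -5.88 and -4.76 for Vcan, -1.80 and -1.48 for Ncan, -3.73 and -2.51 for Acan and 6.75 and 5.50 for Hapln2. In Mog cells Ncan (27.8 and 46.3 CPM) and Cspg5 (26.9 and 30.9 CPM) were below microglial levels in both libraries, and Bcan, at 104 and 129 CPM, was above that of microglia in the untreated library (78.2 CPM) and below it in the other (160 CPM).

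Cells that passed 2 neighboring gates were summed as steps of their own. Cells with Pdgfra and Gpr17 (128 and 163 cells) had 1975 and 1426 CPM of Cspg5, a little below the Pdgfra level, and 340 and 435 CPM of Tnr. This Tnr level was near that of Pdgfra cells in the untreated library (349 CPM), above it in the other (294 CPM), and far below the Gpr17 level in both. Cells with Gpr17 and Mog (185 and 482 cells) had 43.6 and 39.0 CPM of Cspg5, already near that of Mog cells, 92.4 and 76.0 CPM of Vcan, 499 and 380 CPM of Tnr, and 542 and 486 CPM of Bcan, against 569 and 681 CPM in Gpr17 cells. Hapln2 in them was at 38.9 and 44.7 CPM. In this order Cspg5 and Ncan were lower by the Gpr17 gate, Vcan and Tnr by the overlap of Gpr17 and Mog, and Bcan most of all by the Mog gate, where Hapln2 was highest. The overlap cells may include undetected mixtures of 2 cells, whose part in these values was not tested.

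**Figure D3:**
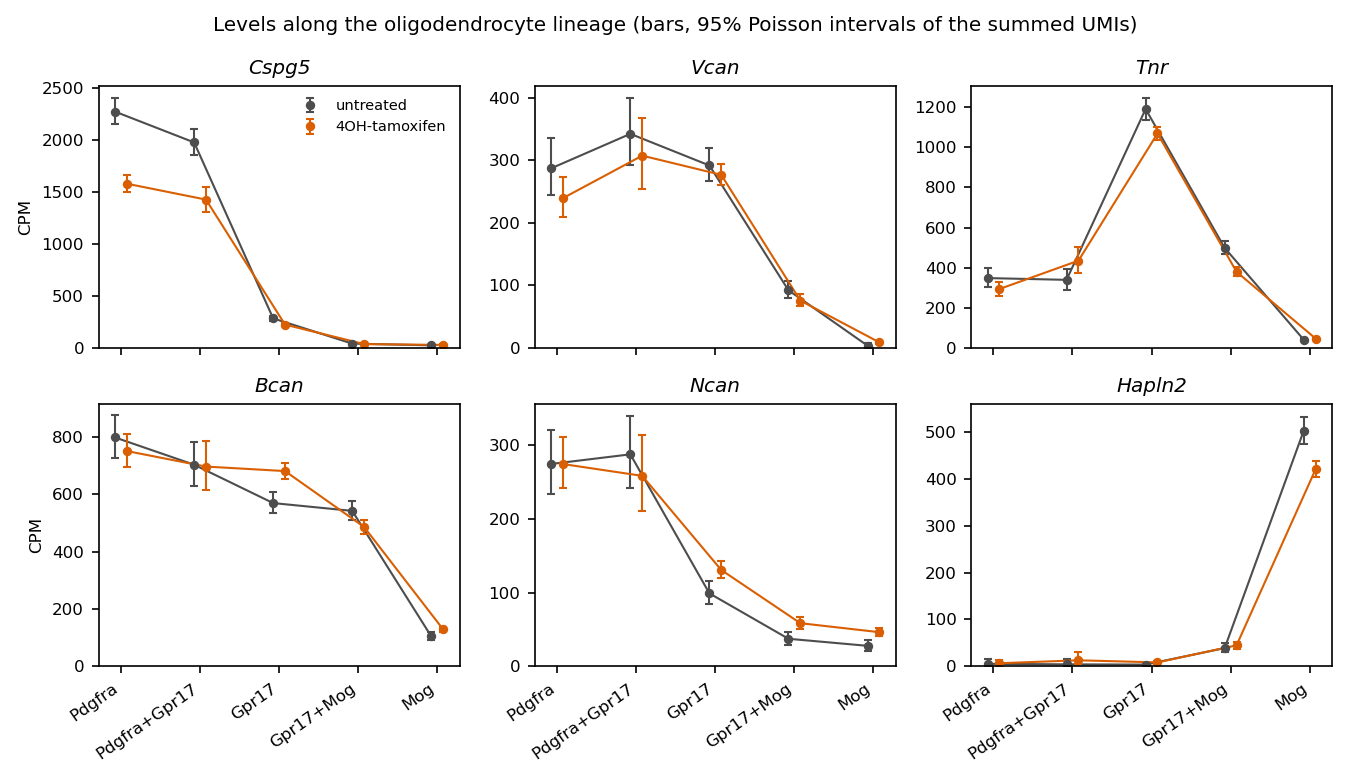
Level in CPM of 6 members (panels) at 5 steps of the oligodendrocyte lineage from Pdgfra cells to Mog cells, including the cells that pass 2 gates, with untreated in gray, 4OH-tamoxifen in orange, and bars giving 95% Poisson intervals on the summed UMIs. Cspg5 drops between the Pdgfra+Gpr17 and Gpr17 steps, Tnr peaks in Gpr17 cells, and Hapln2 rises at the Mog step.

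The same order continued inside the Mog class. Cells with Enpp6, an enzyme of newly formed oligodendrocytes, and no Klk6 (68 and 212 cells) had 255 and 276 CPM of Hapln2, and cells with Klk6, a protease of mature oligodendrocytes (109 and 361 cells), had 780 and 712 CPM, a ratio of 3.06 (2.58 to 3.64) and 2.58 (2.31 to 2.89). Tnr was at 117 and 137 CPM in the Enpp6 cells and at 7.60 and 13.6 CPM in the Klk6 cells, and Bcan was at 223 and 251 CPM against 49.0 and 65.7 CPM. Among Mog cells with Bcan 56.6% also had Hapln2, against 72.4% of those without. The ratios of Ncan (1.23 and 0.887) and Cspg5 (1.08 and 1.02) had intervals that included 1 in both libraries.

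Cycling of the precursors went with little difference in the members. Pdgfra cells with 2 or more UMIs over 5 cell cycle genes (32 and 90 cells) had 1883 and 1388 CPM of Cspg5, and those with none (126 and 337 cells) 2287 and 1631 CPM, a ratio of 0.823 (0.708 to 0.954) and 0.851 (0.744 to 0.971). The ratio of Bcan was 0.970 (0.760 to 1.23) and 0.820 (0.673 to 0.994). The ratios of Ncan (0.851 and 0.843), Vcan (0.683 and 0.973) and Tnr (0.870 and 1.02) had intervals that included 1.

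Neurons held a smaller part of the group, with a link protein, Hapln4, as the clearest member. Taken as the mean of 4 neuron classes against the mean of 4 macroglial classes, 2 of 10 members were higher in neurons and 6 lower, where 26.8% of all genes were higher and 36.4% lower, and the median log2 difference was -1.83 for the members and -0.22 for all genes. Vcan (-2.74 ± 0.26), Bcan (-2.45 ± 0.16), Tnr (-2.16 ± 0.18), Hapln2 (-2.15 ± 0.40) and Ncan (-1.51 ± 0.15, and -0.96 in the 4OH-tamoxifen library alone) were lower. For Hapln2 the Mog class alone (503 and 421 CPM) stood above the neurons, whose classes ranged from 0 to 9.93 CPM of it, while Aqp4, Pdgfra and Gpr17 cells ranged from 3.67 to 8.35 CPM. The lower value of Cspg5 (-0.42 ± 0.13, adjusted p 0.00546) missed the threshold with DESeq2 size factors (adjusted p 0.128), which moved the median of all genes by 0.18, and was -0.21 in the untreated library alone and 0.13, the other direction, in the 4OH-tamoxifen library alone. Hapln4 (2.43 ± 0.46, adjusted p 1.08e-05) and Hapln1 (1.91 ± 0.48, adjusted p 0.000538) were higher, but the Hapln1 difference was -0.19 in the untreated library alone and 2.43 in the 4OH-tamoxifen library alone, these single-library values being on log2(CPM + 1). It also missed the threshold with at most 10% mitochondrial UMIs (adjusted p 0.157) and with cells thinned to 2000 UMIs (adjusted p 0.970).

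Hapln4, a brain link protein known from perineuronal nets of the brainstem and cerebellum, was led by cholinergic neurons. Chat neurons had 8 and 72 UMIs, 104 (44.9 to 205) and 143 CPM (112 to 180), and a UMI in 35.3% and 44.3% of cells, against 1.21% and 1.99% of microglia at similar or lower median depth (4095 and 4150 UMIs in Chat neurons, 4002 and 2294 in microglia). With each cell thinned to 2000 UMIs the shares were 0% of 15 and 19.5% of 77 Chat neurons, against 0.940% and 1.59% of microglia. In the untreated library the thinned level of Hapln4 was thus 0 in Chat neurons, below the 29.4 CPM of Slc17a6 and the 26.3 CPM of Slc32a1 neurons, while in the 4OH-tamoxifen library Chat neurons led at 130 CPM, against 61.6 and 37.7 CPM. Slc17a6 neurons had 35.9 and 90.6 CPM, Slc32a1 neurons 41.1 and 38.3 CPM, and Nmb neurons 6.82 and 9.89 CPM, the last resting on 1 and 2 UMIs. No glial class of the rule exceeded 12.3 CPM. The cells that passed no gate held 22.7% of all Hapln4 UMIs, more than any class.

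Cholinergic neurons also differed from inhibitory neurons in Bcan, the only lectican called in every alternative. Vcan was not called (edgeR adjusted p 0.305). In Chat against Slc32a1 neurons 4 of 10 members were higher and 2 lower, where 6.42% of all genes were higher and 9.79% lower. Bcan was at 598 (438 to 798) and 348 CPM (298 to 403) in Chat neurons and at 69.1 and 143 CPM in Slc32a1 neurons (1.73 ± 0.31, adjusted p 5.69e-05, and 3.10 on log2(CPM + 1) in the untreated library alone). Tnr was at 91.0 and 157 CPM against 44.4 and 42.3 CPM (2.82-fold, adjusted p 0.00161), and Hapln4 differed by 1.52 ± 0.34 (adjusted p 0.00108). The Hapln4 difference missed the threshold with at most 10% mitochondrial UMIs (adjusted p 0.196) and with cells thinned to 2000 UMIs (adjusted p 0.154), and that of Tnr under the first of these (adjusted p 0.104). Acan, the lectican that defines perineuronal nets, was at 52.0 (14.2 to 133) and 21.8 CPM (10.9 to 39.1) against 3.29 and 4.89 CPM (2.42 ± 0.80, adjusted p 0.0297), from 4 and 11 UMIs in 11 of 96 Chat neurons. The Acan difference missed the threshold with stricter gates (adjusted p 0.0618), and Acan did not pass the filter on low counts with at most 10% mitochondrial UMIs or after thinning. Of those 11 cells 7 also had Hapln4, against 40.0% of the other Chat neurons. By library these were 0 of 2 and 7 of 9 cells, and depth was not matched.

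Lower in Chat neurons were Cspg5, at 130 and 183 CPM against 303 and 323 CPM (-1.09 ± 0.29, adjusted p 0.00597), and Ncan, at 91.0 and 61.6 CPM against 104 and 129 CPM (-1.08 ± 0.33, adjusted p 0.0191). The Ncan difference was -0.19 on log2(CPM + 1) in the untreated library alone. Ncan in Chat neurons was above its level in microglia in the untreated library (47.5 CPM) and below it in the other (86.3 CPM). With DESeq2 both missed the threshold (adjusted p 0.0583 and 0.0656), as they did in edgeR with only these classes in the fit (adjusted p 0.262 and 0.384). In edgeR Ncan also missed it with at most 10% mitochondrial UMIs (adjusted p 0.302), after thinning to 2000 UMIs (0.582), with at least 1200 genes (0.0581) and with DESeq2 size factors (0.0566). With at most 10% mitochondrial UMIs 2 of the 6 calls were left. With DESeq2 size factors in the edgeR fit 55.1% in place of 39.6% of all calls were higher, as the median of all genes moved by 0.15. The astrocyte marker list summed to 871 and 906 CPM in Chat neurons and to 1317 and 1431 CPM in Slc32a1 neurons, with all 6 markers above 0 in each. The oligodendrocyte list summed to 12452 and 5146 CPM in Chat and to 5693 and 7062 CPM in Slc32a1 neurons, with all 6 markers above 0. The part of either list in the differences was not tested.

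**Figure D4:**
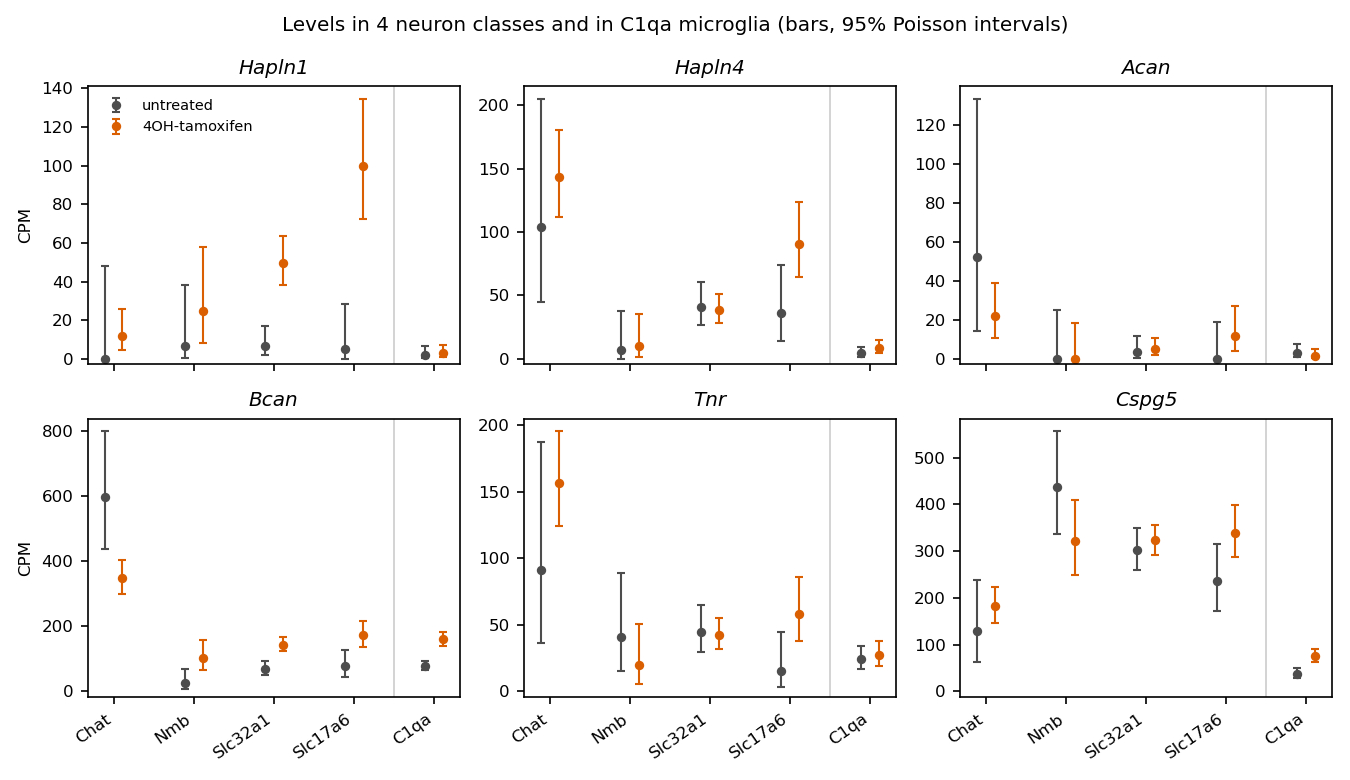
Level in CPM of 6 members (panels) in the 4 neuron classes and, to the right of the line, in C1qa microglia as background, with untreated in gray, 4OH-tamoxifen in orange, and bars giving 95% Poisson intervals on the summed UMIs. Chat neurons lead for Hapln4, Acan, Bcan and Tnr and are lowest of the neurons for Cspg5, and Hapln1 in Slc32a1 and Slc17a6 neurons is high in the 4OH-tamoxifen library only.

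Inhibitory neurons were tested against the other glutamatergic neurons and against the retrotrapezoid neurons, and no member passed either test. Nmb neurons were not tested against Slc17a6 neurons. In Slc32a1 against Slc17a6 neurons edgeR called 0 of 10 members, with 1 at an unadjusted p under 0.05 (Ncan, 0.68 ± 0.30, adjusted p 0.381) and 0 called by DESeq2, where 0.818% of all genes were higher and 0.971% lower. In Nmb against Slc32a1 neurons edgeR called 0 of 10, with 2 at an unadjusted p under 0.05 and 0 called by DESeq2, where 1.59% of all genes were higher and 2.50% lower. The members' median log2 difference was -0.99 against -0.19 for all genes, and -0.94 over the 8 members with a UMI in Nmb neurons. The 2 at an unadjusted p under 0.05 were Hapln4 and Ncan (-0.91 ± 0.36, adjusted p 0.171). For Hapln4, with 3 UMIs in Nmb neurons, the ratio of Slc32a1 to Nmb neurons was 4.56 (95% counting interval 1.499 to 22.6, edgeR adjusted p 0.0726), and Hapln4 was called as lower in Nmb neurons with at least 1200 genes, with stricter gates, with no filter on low counts and with only these classes in the fit. DESeq2 size factors moved the median of all genes by 0.15 in the Nmb comparison, with 55.1% in place of 38.9% of all calls higher.

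Nmb neurons, known as CO2-sensing cells, had few UMIs of most members. Acan had 0 UMIs in all 78 of them, where 3 UMIs would be 20.4 and 14.8 CPM. These values are above the Acan levels of Slc32a1 (3.29 and 4.89 CPM) and Slc17a6 neurons (0 and 11.6 CPM), so a level lower than in those classes was not detectable in either library at this depth. The Acan levels of Chat neurons were 52.0 (14.2 to 133) and 21.8 CPM (10.9 to 39.1), and within each library their intervals overlap those of Nmb neurons, whose upper bounds were 25.1 and 18.2 CPM. Over both libraries together the upper bound of 0 UMIs in Nmb neurons was 10.6 CPM, below the Chat level of either library. Nmb neurons were not tested against Chat neurons. Tnc likewise had none. Hapln1 had 1 and 5 UMIs, 6.82 (0.173 to 38.0) and 24.7 CPM (8.03 to 57.7), against 2.19 (0.452 to 6.41) and 2.88 CPM (0.784 to 7.37) in microglia, and the intervals overlapped in the untreated library and not in the other. Bcan (27.3 and 104 CPM) was below its level in microglia (78.2 and 160 CPM) in both libraries, and Tnr (40.9 and 19.8 CPM) was above it in the untreated library and below it in the other (24.1 and 27.3 CPM). Cspg5 was high, at 436 (336 to 557) and 321 CPM (248 to 410), with a UMI in 95.7% and 65.5% of the cells against 13.3% and 14.1% of microglia (69.6% and 47.9% against 7.52% and 12.4% with each cell thinned to 2000 UMIs), and its level in Slc32a1 (303 and 323 CPM) and Slc17a6 neurons (236 and 339 CPM) was of the same order. Bcan in Slc32a1 neurons (69.1 and 143 CPM) lay below its level in microglia in both libraries as well.

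Inhibitory neurons with Pvalb, a calcium buffer of fast-firing cells that often carry nets, were few. The 2 and 16 cells with Pvalb and no Sst had 4 and 7 UMIs of Hapln4, together 123 CPM, and the 35 and 112 cells with Sst and no Pvalb had 11 and 21 UMIs, together 41.9 CPM, a ratio of 2.94 (1.34 to 5.98). In the 4OH-tamoxifen library alone the ratio was 2.44 (0.876 to 5.96). Hapln1 had 15 UMIs (224 CPM) in the 16 Pvalb cells of that library and 0 UMIs in its 112 Sst cells, where 3 UMIs would be 6.12 CPM. The ratio of Bcan was 2.93 (1.70 to 4.88) in that library and 0.610 (0.0147 to 3.81) in the untreated library, where it rests on 1 UMI. The Pvalb cells of the 4OH-tamoxifen library had 329 CPM of Bcan. Cspg5 went the other way, with a ratio of 0.383 (0.172 to 0.744) in that library and 0.787 (0.282 to 1.78) in the untreated library, and the ratios of Ncan and Tnr had intervals that included 1 in both. Hapln1 and Hapln4 were also found in the same neurons: 66.7% of the 18 Slc17a6 neurons with Hapln1 had Hapln4, against 21.5% of those without, and 34.4% against 14.5% in Slc32a1 neurons. Cells with more UMIs are likelier to show both genes, and depth was not matched in these shares.

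Between the libraries most levels in Aqp4, Pdgfra, Gpr17 and Mog cells stayed within 1.5-fold, and Hapln1 was the member that moved most. In Slc32a1 neurons it went from 4 UMIs (6.58 CPM) to 61 UMIs (49.7 CPM), a ratio of 4OH-tamoxifen to untreated of 7.55 (2.80 to 28.6), and in Slc17a6 neurons from 1 to 43 UMIs, a ratio of 19.5 (3.31 to 787). The Slc17a6 class, with 18 and 79 cells, was also higher in the 4OH-tamoxifen library for Tnr (3.77, 1.15 to 19.5), Hapln4 (2.52, 1.12 to 6.68), Ncan (2.26, 1.09 to 5.27), Bcan (2.23, 1.27 to 4.19) and Cspg5 (1.44, 1.03 to 2.05). In Aqp4 cells Hapln1 went from 52.8 to 32.9 CPM, a ratio of 0.624 (0.476 to 0.818). In the 4OH-tamoxifen library 10.3% of Slc32a1 neurons had a UMI of Hapln1, so 61 UMIs came from few cells, and the Slc32a1 class held 2 and 16 Pvalb cells, whose part in the result was not tested.

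Counted among genes with at least 50 UMIs in a class, 2 of 6 members in Slc32a1 neurons were past 1.5-fold (Hapln1 and Bcan, 13.5% of all such genes), 2 of 7 in Aqp4 cells (Hapln1 and Tnc, 17.5%), 0 of 5 in Pdgfra cells (16.4%), 0 of 6 in Gpr17 cells (13.0%), 2 of 6 in Mog cells (Ncan and Vcan, 10.4%) and 3 of 4 in C1qa microglia (Bcan, Ncan and Cspg5, 18.1%). Bcan was 2.07 times (1.47 to 2.98) as high in Slc32a1 neurons and 2.04 times (1.61 to 2.60) as high in microglia in the 4OH-tamoxifen library, where the class is background. Tnc in Aqp4 cells went from 89.2 to 52.0 CPM (ratio 0.582, 0.472 to 0.719), and Cspg5 in Pdgfra cells from 2270 to 1579 CPM (0.695, 0.645 to 0.750). Ncan in Pdgfra cells (0.999, 0.815 to 1.23) and Aqp4 cells (1.02, 0.952 to 1.09) and Vcan in Gpr17 cells (0.949, 0.850 to 1.06) had ratios whose intervals included 1. These intervals cover counting error only, and 1 library per condition gives no replicate check.

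**Figure D5:**
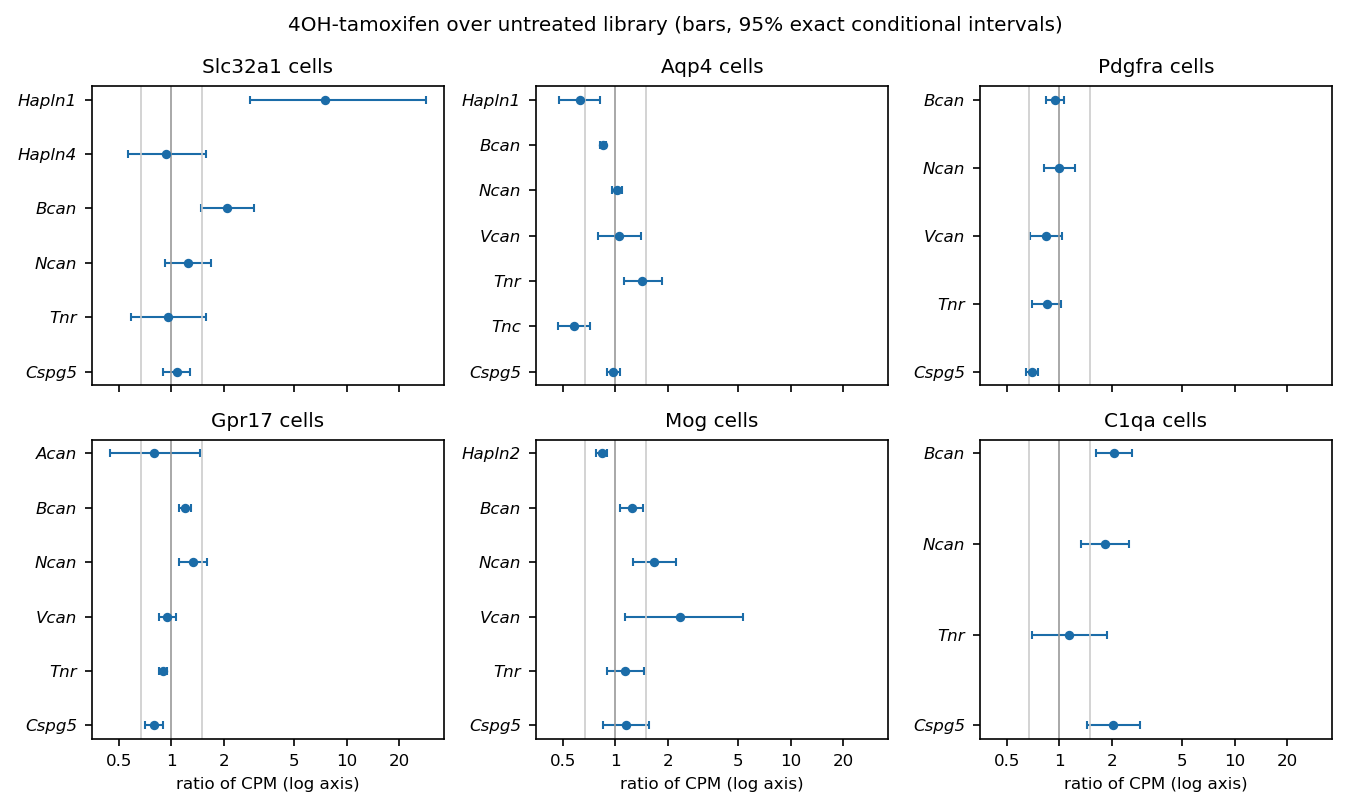
Ratio of CPM in the 4OH-tamoxifen over the untreated library (log axis) for the members with at least 50 UMIs in each of 6 classes (panels), with bars giving 95% exact conditional intervals and lines at 1 and at 1.5-fold either way. Hapln1 lies at 7.55 in Slc32a1 neurons and at 0.624 in Aqp4 cells, and all members shown for Pdgfra and Gpr17 cells lie within 1.5-fold.

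The genes whose levels ran most like each member over the 24 sums are given as a description (Pearson's r of log2(CPM + 10), among 7292 genes, gate genes left out). Hapln2 was most like Cldn14 (r = 0.95), Insc (0.94) and Gm12326 (0.93), and Hapln4 most like Chrm2 (0.96), Sv2b (0.95) and Galnt9 (0.95). Vcan was most like Sox6 (0.92), C1ql1 (0.88) and Matn4 (0.85), Tnr like 3110035E14Rik (0.90), Fyn (0.87) and 5730559C18Rik (0.87), and Cspg5 like Ddah1 (0.89), Nnat (0.87) and Smoc1 (0.87). Bcan was nearest to Slitrk2 (0.90), Gm3764 (0.88) and Zfp219 (0.86), Ncan to Gm3764 (0.96), Slc1a2 (0.92) and Wnt7b (0.91), and Tnc to Adora2b (0.91), Extl1 (0.87) and Sox9 (0.87). The likeness was weakest for Hapln1 (Ppargc1a, Lgi1 and Psd2, each 0.76). For Acan, with 184 UMIs in all filtered cells and under the level set for the compared genes, Trim67 (0.88), Nrg1 (0.87) and Uck2 (0.84) came first. Among the members themselves Vcan and Tnr (0.81) and Hapln4 and Acan (0.71) followed Bcan and Ncan.

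A list of 53 other matrix genes, of which 42 passed the filter on low counts, was followed through the same comparisons. In Pdgfra against Aqp4 cells 10 were higher and 11 lower, where 14.0% of all genes were higher and 17.1% lower, and the list's median log2 difference was 0.30 against -0.07 for all genes. Among them were Cspg4, the NG2 proteoglycan (238 and 251 against 9.12 and 15.3 CPM, log2 difference 3.91 ± 0.28), and Cd44, a hyaluronan receptor, which was lower (1.76 and 4.38 against 50.9 and 57.2 CPM, -4.35 ± 0.51). From Pdgfra to Gpr17 cells 6 rose and 14 fell, where 8.19% of all genes rose and 8.55% fell (median -0.71 against 0.03). Tmem2, a cell surface hyaluronidase, rose from 1.76 and 2.19 to 65.4 and 161 CPM (3 UMIs in all in Pdgfra cells, CPM ratio 64.8, 95% counting interval 22.1 to 315), and Adamts4, a protease that cuts lecticans, from 1.76 and 9.85 to 57.5 and 102 CPM (3.77 ± 0.40). From Gpr17 to Mog cells 7 rose and 16 fell, where 19.1% of all genes rose and 18.5% fell (median -0.68 against -0.04). Of the 15 tested enzymes that build or sulfate chondroitin chains 8 fell and 2 rose, Chst12 (1.07 ± 0.29) and Dsel (0.98 ± 0.36), both named after their values were seen. In CPM, without the scaling of the fit, Chst12 went from 18.3 and 12.8 to 27.8 and 18.5. Dsel went from 8.56 and 8.63 to 11.5 and 12.2 CPM. Csgalnact1, which starts those chains (-4.43 ± 0.34), Xylt1, which links them to the protein (-3.95 ± 0.33), Ptprz1, a proteoglycan receptor phosphatase (-3.50 ± 0.27), and Timp4, a protease inhibitor (-3.21 ± 0.27), fell most.

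In the mean of the neuron classes against the macroglial classes 12 of the 42 were higher and 17 lower, where 26.8% of all genes were higher and 36.4% lower, so the counts were near the background (median -0.51 against -0.22). Of the 12 higher genes 8 were among the 11 tested receptors and binding partners (1 of the 11 was lower), such as Sema3a, a guidance cue that binds nets (4.20 ± 0.35), Nptx1, a pentraxin that gathers glutamate receptors (3.77 ± 0.37), and Rtn4r, a receptor for chondroitin sulfate (3.61 ± 0.65). In Chat against Slc32a1 neurons 5 were higher and 6 lower, where 6.42% of all genes were higher and 9.79% lower (median -0.18 against -0.12). Nptx2, a related pentraxin, had 0 UMIs in Chat and Nmb neurons of both libraries and 39.5 and 44.0 CPM in Slc32a1 neurons. In Slc32a1 against Slc17a6 neurons Ptprz1 alone was called (1.56 ± 0.37, adjusted p 0.00932), where 0.818% of all genes were higher and 0.971% lower (median -0.01 against 0.09). In Nmb against Slc32a1 neurons, where 1.59% of all genes were higher and 2.50% lower (median -0.35 against -0.19), 2 were higher, Csgalnact1 (3.15 ± 0.65) and Rtn4rl1 (2.23 ± 0.68), and 2 lower, Nptx2 and Ptprz1 (13.6 and 69.2 CPM against 186 and 151 CPM). In Aqp4 cells against microglia 19 were higher and 8 lower, where 24.1% of all genes were higher and 23.4% lower (median 1.10 against 0.10). Hapln3, the neighbor of Acan and the last of the link proteins, did not pass the filter, and its highest levels in the 9 classes were 10.6 and 17.5 CPM in Pdgfra cells and 13.0 and 13.9 CPM in Chat neurons. The 3 hyaluronan synthases did not pass it either.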

How the data were processed

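Cells from microdissected brainstem slices were captured with 10x version 2 chemistry, 1 library per condition. The deposited counts are UMIs per gene and barcode, made by the authors with bcl2fastq 2.18.0.12 and Cell Ranger 2.2.0 on mm10 (GRCm38), and not normalized. Barcodes were kept with at least 800 genes, at most 50 hemoglobin UMIs and at most 20% mitochondrial UMIs, after Scrublet (scanpy 1.11.5) removed 6 and 544 doublets. Glial, vascular and fibroblast gates needed 2 UMIs of the marker, neuron gates 3 UMIs over Snap25, Syp, Tubb3 and Elavl2 with 2 of Nmb or 1 of Chat, Slc32a1 or Slc17a6, and a cell passing 1 gate was in the class. Nmb with Slc17a6 counted as Nmb. Doublets removed were 6 of 3767 and 544 of 10241 barcodes. Apart from the Pdgfra with Gpr17 and Gpr17 with Mog overlaps, cells passing 2 or more gates were 18.2% and 13.1% of the filtered cells. Whether mixtures were left unequally in the libraries was not tested. UMIs were summed per class and library over 12 classes (Cldn5, Rgs5 and Dcn besides the 9) and tested with edgeR 4.0.16 (quasi-likelihood, TMM, filterByExpr, library as a term, Benjamini-Hochberg, adjusted p under 0.05, R 4.3.3), with DESeq2 1.42.0 as an alternative. The fit was also run on counts simulated from its own means and dispersions. The outcome is not given here, so no calibration of the p-values is claimed. The standard error is the log2 difference over the root of the F statistic. A member can pass the filter through the class where it is high.

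The 10 members and all lists were chosen with earlier results of these data known. Named genes are the members, of each comparison at most 4 genes of the matrix list with the largest differences, and the 3 genes most alike to each member. Exceptions are Chst12 and Dsel, named after their values were seen, and Hapln3 and the hyaluronan synthases, which did not pass the filter. Gene positions are from GENCODE vM21 and promoters from RefSeq. Tnr overlaps other annotated genes on its strand, where reads may be shared.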

Additional observations from a re-analysis of the deposited data

Results flagged for a closer look

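Hapln1 moved in opposite directions between the libraries in 2 classes. Its ratio of the 4OH-tamoxifen to the untreated library was 7.55 (95% counting interval 2.80 to 28.6) in Slc32a1 neurons, from 4 and 61 UMIs, and 0.624 (0.476 to 0.818) in Aqp4 astrocytes, from 110 and 114 UMIs. With 1 library per condition the difference between the classes was not tested.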

How the results depend on the processing

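Of 39 class differences called, 29 were tested and called in every alternative with both libraries and 400 of 423 alternative values stayed past the threshold in the same direction, with none reversed. The calls lost were Acan, Hapln4, Ncan, Tnr and Cspg5 in Chat against Slc32a1 neurons, Acan in Pdgfra against Aqp4 cells, Tnr in Aqp4 cells against microglia, and Hapln1 and Cspg5 in neurons against macroglia. Acan in Mog against Gpr17 cells lost no call where it was tested. In no comparison did Acan pass the filter on low counts with at most 10% mitochondrial UMIs or after thinning. In Chat against Slc32a1 neurons 2 of 6 calls were left with at most 10% mitochondrial UMIs, where Acan did not pass the filter on low counts, and thinning to 2000 UMIs gave 4, of which 3 were among the 6 and the other was Hapln1. In Nmb against Slc32a1 neurons 1 member, Hapln4, was called in place of 0 with at least 1200 genes, with stricter gates (3 and 2 UMIs), with no filter on low counts and with only these classes in the fit. The cause was not tested. An Aqp4 gate of 4 UMIs, chosen after seeing the data, moved no count by over 1.5 times. Leaving out 1 library leaves no residual degrees of freedom, so log2 ratios of CPM + 1 were taken without a test: 2 of 78 changed sign, Hapln1 in neurons against macroglia (-0.19 without the 4OH-tamoxifen and 2.43 without the untreated library) and Cspg5 there (-0.21 and 0.13). These ratios lack the TMM scaling of the fit, so their distance from the fitted values mixes scaling with the library left out. Class differences were taken within libraries, since library is a term of the fit. No paired analysis was possible between the conditions because each condition has 1 library. Of the members past 1.5-fold between libraries, a fold of 2 left 0 in Aqp4 and 1 in Mog cells, and at most 10% mitochondrial UMIs left 1 in Slc32a1 and 1 in Aqp4 cells. Depth limits the neurons most: 17 Chat neurons of the untreated library gave 76936 UMIs, so 3 UMIs stand for 39.0 CPM.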
